A study of Mus musculus with 8 samples.

Results

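Galectins are secreted and cytosolic proteins that bind galactose-containing sugar chains on other proteins. The genes described here were the 5 of 18957 listed genes with the symbols Lgals1, Lgals3, Lgals3bp, Lgals8 and Lgals9, read in 4 WT and 4 Pdgfra-Cre:LmnaF/F libraries. The symbols were picked by name with earlier results of these same counts known, so the contrast between the genotypes is given for them as a description. All 5 passed the filter on low counts, which left 13036 genes to be tested. Lgals3bp carries the family's prefix in its symbol but encodes a glycoprotein that galectins bind, not a galectin.

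The study asked how far fibroblasts contribute to the dilated cardiomyopathy seen when lamin A/C, the nuclear lamina protein encoded by Lmna, is lacking. Mice of a C57BL/6 (mixed) strain with exon 2 of Lmna floxed were crossed to mice with a Pdgfra-Cre transgene on a bacterial artificial chromosome. The WT group were littermates with wild-type alleles alone. Mice were 3 to 4 weeks old, and living ventricular cells that carried PDGFRA and lacked hematopoietic lineage markers were sorted after collagenase perfusion. Because WT mice lacked Cre as well as the deletion, effects of the transgene and of the deletion cannot be told apart. The Pdgfra promoter is also active in some cardiac myocytes during development and in mesenchyme of other organs, so cells other than those sorted may carry the deletion.

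Each galectin holds a carbohydrate recognition domain, a folded sheet whose groove takes up a galactoside. Galectin-1 has 1 such domain and pairs with itself. Galectin-3 has 1 domain behind a long flexible tail through which it forms larger assemblies, while galectin-8 and galectin-9 carry a pair of different domains joined by a linker. Outside the cell these proteins cross-link receptors and matrix glycoproteins, and inside the cell they mark damaged endosomes and lysosomes, whose inner sugars have become exposed. In the heart, galectin-3 is best known as a product of macrophages and activated fibroblasts that is followed as a marker of fibrosis, and galectin-9 is known as an interferon-inducible ligand of the T cell receptor TIM-3.

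The coding sequence of the sugar-binding groove is shown because it is the feature the galectins share and Lgals3bp lacks. In the GENCODE M21 transcripts the search found 6 segments in 4 of the genes, and their capitals mark the codons of the histidine, asparagine, arginine, tryptophan and glutamate that contact the sugar. The segments are on GRCm38 (mm10). They lie in exon 3 of Lgals1 (chr15:78929676-78929759, plus strand), exon 5 of Lgals3 (chr14:47384642-47384722, plus strand), exons 4 and 9 of Lgals8 (chr13:12454813-12454887 and chr13:12447195-12447266, minus strand) and exons 3 and 10 of Lgals9 (chr11:78973066-78973140 and chr11:78965743-78965814, minus strand).
Lgals1: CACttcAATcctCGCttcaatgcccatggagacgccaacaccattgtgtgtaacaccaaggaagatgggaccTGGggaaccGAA
Lgals3: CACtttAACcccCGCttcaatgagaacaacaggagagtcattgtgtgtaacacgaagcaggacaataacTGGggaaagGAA
Lgals8, first domain: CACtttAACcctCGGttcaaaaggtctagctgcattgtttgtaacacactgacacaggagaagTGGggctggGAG
Lgals8, second domain: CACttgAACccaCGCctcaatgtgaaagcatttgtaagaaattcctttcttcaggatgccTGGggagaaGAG
Lgals9, first domain: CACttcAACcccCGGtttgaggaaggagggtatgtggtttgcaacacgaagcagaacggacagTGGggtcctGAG
Lgals9, second domain: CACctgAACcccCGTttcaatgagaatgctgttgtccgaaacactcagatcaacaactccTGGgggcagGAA
The coding sequences were 405 bases long in Lgals1, 792 in Lgals3, 948 in Lgals8 and 1059 in Lgals9. That of Lgals3bp had 1731 bases and 0 such segments.

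The promoters of Lgals9 and Lgals3 are shown because these 2 genes had the largest fold changes of the 5. RefSeq (GRCm38.p6) promoter windows, from 250 bases before to 50 bases after the gene's start, were matched for 4 of the 5 genes. The RefSeq starts lie inside the GENCODE bounds given below for each gene, by several kb for Lgals3 and Lgals8. The Lgals9 window (chr11:78984875-78985174, minus strand) held 2 matches to the interferon-stimulated response element (GAAA, any 2 bases, GAAA, on either strand), at -55 and at 16 from the start. These are in capitals.
Lgals9 promoter: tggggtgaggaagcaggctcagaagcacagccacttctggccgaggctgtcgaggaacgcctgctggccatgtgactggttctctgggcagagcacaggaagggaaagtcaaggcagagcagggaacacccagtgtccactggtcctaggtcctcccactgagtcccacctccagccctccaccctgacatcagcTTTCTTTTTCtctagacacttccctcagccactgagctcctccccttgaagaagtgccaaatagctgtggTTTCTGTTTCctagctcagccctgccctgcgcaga
Of all 32851 windows of this length, 3.44% held at least 1 match and 0.225% held at least 2. The Lgals3 window (chr14:47373610-47373909, plus strand) held 2 GC boxes, GGGCGG on either strand, at -7 and 5, and 1 CCAAT box at -167.
Lgals3 promoter: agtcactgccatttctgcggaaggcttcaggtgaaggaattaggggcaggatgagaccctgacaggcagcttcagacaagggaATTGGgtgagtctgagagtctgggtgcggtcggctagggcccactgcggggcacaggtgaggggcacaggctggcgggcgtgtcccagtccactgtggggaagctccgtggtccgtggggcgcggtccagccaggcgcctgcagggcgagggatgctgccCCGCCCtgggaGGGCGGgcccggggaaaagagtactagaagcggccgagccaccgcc
GC boxes were found in 35.7% and CCAAT boxes in 37.4% of all windows, so neither is rare. The Lgals8 window held 2 CCAAT boxes, at -230 and -203, and the Lgals3bp window held no match to any of the 6 motifs searched. The other motifs were GAS (TTCNNNGAA), AP-1 (TGANTCA) and the TATA box (TATAAA), found in 8.3%, 7.81% and 13.6% of windows. A match is a likeness of letters and says nothing of whether a factor binds there.

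Total counts ranged from 2080555 in WT replicate 2 to 12502949 in Pdgfra-Cre:LmnaF/F replicate 4, and values below are TMM-normalised CPM (each gene's counts scaled to a common library size). Lmna was lower in all Pdgfra-Cre:LmnaF/F libraries (111 ± 20.0 CPM against 365 ± 88.4 in WT, SD, n = 4 each). Fibroblast marker genes summed to 31150 to 34040 CPM in WT and 31532 to 43147 CPM in Pdgfra-Cre:LmnaF/F libraries, and lymphocyte markers to at most 10.4 CPM in any library. Dcn made up the largest share of the fibroblast sum, and within this list Thy1, a surface glycoprotein, was lower, at 35.6 to 48.5 against 133 to 305 CPM in WT (log2 fold change -2.18, SE 0.26, edgeR adjusted p = 0.00273). Pdgfra-Cre:LmnaF/F replicate 4 stood apart, with cardiac myocyte markers at 3122 CPM (188 to 610 in the other 7) and macrophage markers at 519 CPM (52.0 to 190 in the others). Y-linked genes were expressed in WT replicates 1, 2 and 4 and in Pdgfra-Cre:LmnaF/F replicate 4, so sex and genotype were partly confounded. In bulk RNA, fewer cells of a type and less RNA per cell cannot be told apart.

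Among the 5 genes, Lgals9 was the 1 that was lower in the LMNA-deficient fibroblasts by the test, at 2.58-fold below WT. The other 4 did not pass it. Lgals3 had the largest difference in the opposite direction, at 6.61-fold above WT, but it was carried mainly by 1 library. Lgals1, Lgals3bp and Lgals8 had estimates below WT with standard errors of 0.21 to 0.29 on the log2 scale. Over all genes tested, 0.407% were called in either direction, 0.238% lower and 0.169% higher. The median log2 fold change of all genes was 0.02, with 48.2% of genes below 0.

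**Figure D1:**
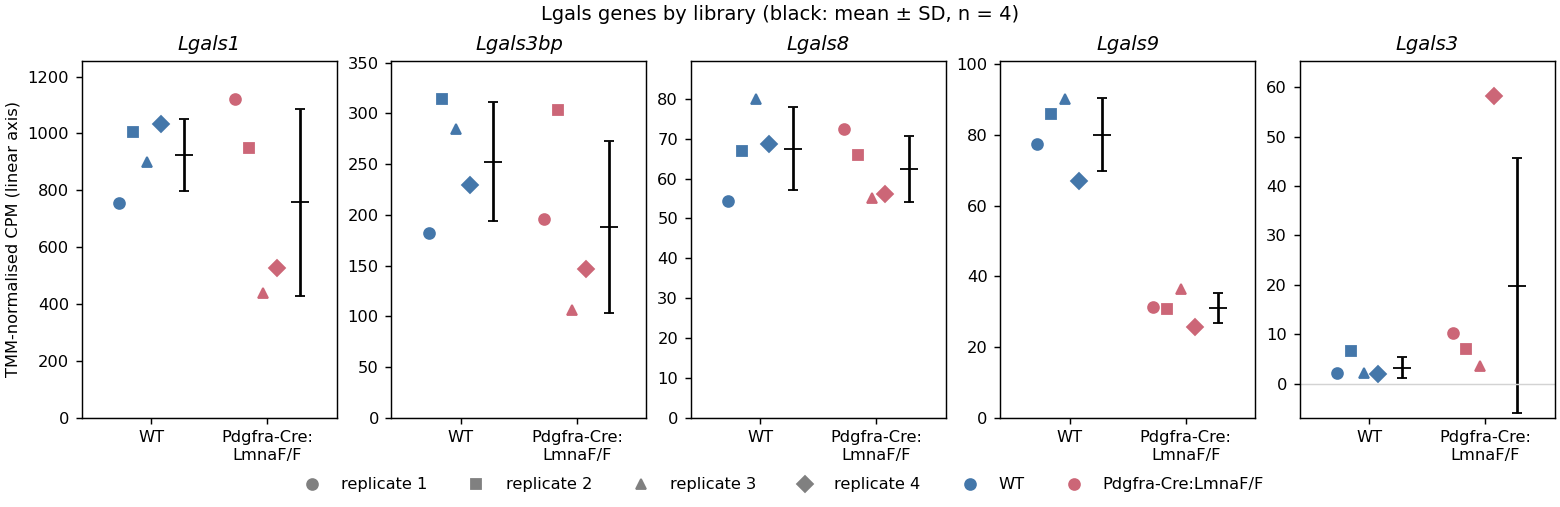
Normalised CPM of each gene (linear axes, 1 scale per gene) in each WT (blue) and Pdgfra-Cre:LmnaF/F (red) library, with marker shapes for replicate numbers and black bars for mean ± SD, n = 4. The Lgals9 values of 25.7 to 36.3 in Pdgfra-Cre:LmnaF/F libraries all lie below the WT values of 66.9 to 90.1, while in Lgals3 a single Pdgfra-Cre:LmnaF/F library at 58.3 stands above the rest.

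Lgals9 (ENSMUSG00000001123.15, chr11:78962974-78984946, minus strand) encodes galectin-9. Its WT levels were 77.5, 86.0, 90.1 and 66.9 CPM in replicates 1 to 4, with a mean of 80.1 ± 10.3 (SD, n = 4). In the Pdgfra-Cre:LmnaF/F libraries they were 31.4, 30.8, 36.3 and 25.7 CPM, with a mean of 31.0 ± 4.34 (SD, n = 4). The groups did not overlap, and the highest Pdgfra-Cre:LmnaF/F value was well below the lowest WT value. Across all tested genes, 3.97% were without overlap and lower, 4.06% without overlap and higher, and 8.03% without overlap in either direction. The values rested on 171 to 830 counts in WT and 295 to 315 counts in Pdgfra-Cre:LmnaF/F libraries. The log2 fold change was -1.37 (SE 0.22, adjusted p = 0.0186 by edgeR's quasi-likelihood test with Benjamini-Hochberg adjustment over all genes), which ranked 11 of all tested genes by p and 10 among those lower.

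Lgals9 was lower in Pdgfra-Cre:LmnaF/F libraries both with and without Y-linked expression. Each split left 1 library in an arm, so neither could be tested alone. Where Y-linked genes were expressed, the 3 WT libraries had 66.9 to 86.0 CPM and the 1 Pdgfra-Cre:LmnaF/F library had 25.7. Where they were not, the 1 WT library had 90.1 CPM and the 3 Pdgfra-Cre:LmnaF/F libraries had 30.8 to 36.3. The sum of 6 endothelial markers was also lower in every Pdgfra-Cre:LmnaF/F library, at 409 to 514 against 534 to 729 CPM (exact two-sided permutation p = 0.0286, the smallest this design allows, 0.129 after Benjamini-Hochberg adjustment over 9 lists). Tek made up most of this sum, at 287 to 342 against 377 to 543 CPM, while Tie1 was highest of all in Pdgfra-Cre:LmnaF/F replicate 4, at 46.1 against 20.1 to 37.7 CPM in WT. No endothelial marker was called by edgeR (lowest adjusted p = 0.208) and none was at 0 in any library. The sum of 8 immediate-early genes that respond to tissue dissociation was higher, at 5557 to 9133 against 1521 to 4220 CPM (exact permutation p = 0.0286, adjusted 0.129). The part of either list in the Lgals9 result was not tested. When WT replicate 2, the shallowest library, and Pdgfra-Cre:LmnaF/F replicate 4 were both left out, the log2 fold change was -1.25 with an adjusted p of 0.0598 in edgeR.

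Lgals3 (ENSMUSG00000050335.17, chr14:47367751-47386160, plus strand) encodes galectin-3. It had 2.24, 6.54, 2.24 and 1.97 CPM in WT replicates 1 to 4, from 24, 13, 14 and 19 counts, with a mean of 3.25 ± 2.20 (SD, n = 4). The Pdgfra-Cre:LmnaF/F libraries had 10.3, 7.09, 3.57 and 58.3 CPM, from 100, 68, 31 and 700 counts, with a mean of 19.8 ± 25.8 (SD, n = 4). Of the Pdgfra-Cre:LmnaF/F libraries, 3 of 4 were above every WT library, replicate 3 lay between the WT values, and replicate 4 was far above all others. The log2 fold change was 2.73 (SE 0.81), and the adjusted p of 0.189 in edgeR's quasi-likelihood test missed the threshold. Without Pdgfra-Cre:LmnaF/F replicate 4 it was 1.16 (edgeR, adjusted p = 0.70). DESeq2 called it, at 2.68 (adjusted p = 0.0232), as did edgeR without the filter on low counts, at 2.70 (adjusted p = 0.0185).

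The library with the highest Lgals3 was also the one with the highest macrophage and myocyte markers. Of the 10 macrophage markers, 9 were highest there, among them Lyz2 at 282 CPM (21.3 to 134 in the other libraries) and Tyrobp at 25.9 CPM (0 to 5.05). All 10 were listed, 4 of them were at 0 in at least 1 library, and Fcgr1 was at 0.667 CPM in that library. All 6 myocyte markers were highest there, with Myh6 at 2046 CPM against 97.5 to 368 in the others. Among the remaining 7 libraries, the macrophage sums were 61.9 to 119 CPM in Pdgfra-Cre:LmnaF/F and 52.0 to 190 CPM in WT, while Lgals3 was 3.57 to 10.3 and 1.97 to 6.54 CPM. The part of the macrophage and myocyte markers in the level of Lgals3 was not tested. Among libraries with Y-linked expression, Lgals3 was 1.97 to 6.54 CPM in 3 WT libraries and 58.3 in 1 Pdgfra-Cre:LmnaF/F library, and among those without it was 2.24 in 1 WT and 3.57 to 10.3 in 3 Pdgfra-Cre:LmnaF/F libraries. With 1 library in an arm, neither split could be tested alone.

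**Figure D2:**
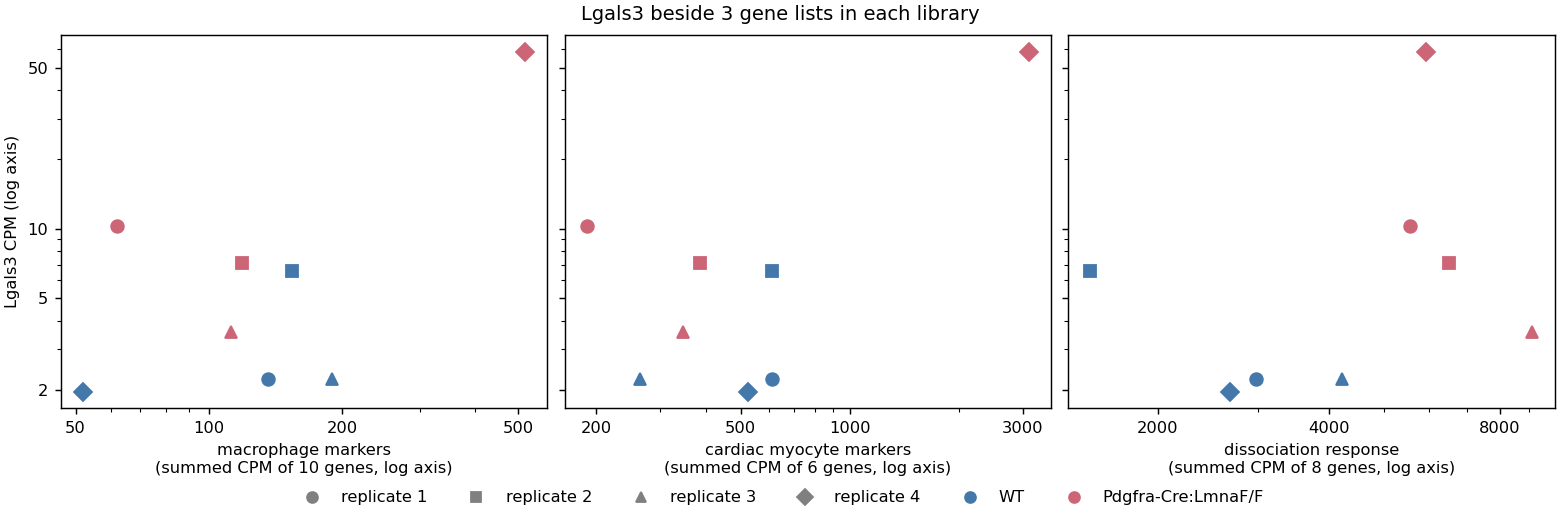
Lgals3 CPM (log axis) against the summed CPM (log axes) of macrophage markers, cardiac myocyte markers and dissociation-response genes, with 1 point per library, WT in blue and Pdgfra-Cre:LmnaF/F in red. Pdgfra-Cre:LmnaF/F replicate 4 (diamond), at 58.3 CPM of Lgals3, is farthest right for the macrophage (519) and myocyte (3122) sums but not for the dissociation sum (5926).

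Lgals1 (ENSMUSG00000068220.6, chr15:78926725-78930465, plus strand) encodes galectin-1, a matrix and cell surface lectin made by many mesenchymal cells. The WT libraries had 756, 1005, 901 and 1034 CPM (924 ± 126, SD, n = 4). The Pdgfra-Cre:LmnaF/F libraries had 1120, 948, 437 and 525 CPM (758 ± 329, SD, n = 4). The latter split, with replicates 1 and 2 inside or above the WT range and replicates 3 and 4 below it. The log2 fold change was -0.29 (SE 0.28, adjusted p = 0.772 in edgeR).

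Lgals3bp (ENSMUSG00000033880.11, chr11:118392751-118402092, minus strand) encodes a secreted glycoprotein with a scavenger receptor domain, which galectin-3 and galectin-1 bind. It had 182, 314, 285 and 229 CPM in WT (252 ± 58.6, SD, n = 4). In the Pdgfra-Cre:LmnaF/F libraries it had 196, 303, 106 and 147 CPM (188 ± 85.1, SD, n = 4). Replicates 3 and 4 were again the low ones, and the groups overlapped. The log2 fold change was -0.42 (SE 0.29, adjusted p = 0.623 in edgeR).

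Lgals8 (ENSMUSG00000057554.13, chr13:12439415-12464944, minus strand) encodes galectin-8, which recognises damaged vesicles. The WT levels were 54.5, 66.9, 79.9 and 68.7 CPM (67.5 ± 10.4, SD, n = 4). In Pdgfra-Cre:LmnaF/F libraries they were 72.5, 66.0, 55.1 and 56.1 CPM (62.4 ± 8.32, SD, n = 4). The ranges almost coincided, and the log2 fold change was -0.11 (SE 0.21, adjusted p = 0.896 in edgeR). The gene overlaps Heatr1 on the opposite strand, and whether reads were counted by strand is not given in the sources used here, so its counts may hold Heatr1 reads.

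Relative to Lgals8 in the same library, Lgals9 was lower in every Pdgfra-Cre:LmnaF/F library than in any WT library. The ratio of Lgals9 to Lgals8 CPM, not scaled for length, was 1.42, 1.29, 1.13 and 0.974 in WT replicates 1 to 4 and 0.434, 0.466, 0.658 and 0.458 in Pdgfra-Cre:LmnaF/F. This ratio uses the same Lgals9 counts as the fold change above and adds no separate evidence. Lgals9 amounted to 6.47% to 10.3% of Lgals1 in WT and to 2.81% to 8.30% in Pdgfra-Cre:LmnaF/F by CPM, and these ranges overlapped. The sum of the 5 genes was 1072 to 1478 CPM in WT and 638 to 1431 CPM in Pdgfra-Cre:LmnaF/F, and Lgals1 made up 64.7% to 78.3% of it over all libraries.

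Levels were compared between genes as CPM per kb of exon (mean, n = 4). In WT the order was Lgals1 at 1023, Lgals3bp at 88.7, Lgals9 at 37.5, Lgals8 at 18.3 and Lgals3 at 1.75 CPM per kb, and it was the same in 4 of 4 libraries with no overlap between neighbours. Lgals1 exceeded 99.9% of tested genes in this measure and Lgals3 exceeded 23.1%. In the Pdgfra-Cre:LmnaF/F libraries Lgals1 stood at 839, Lgals3bp at 66.0, Lgals8 at 16.9, Lgals9 at 14.5 and Lgals3 at 10.7 CPM per kb. There the ranges of Lgals8 and Lgals9 overlapped, as did those of Lgals9 and Lgals3. Lgals3 had 5.57, 3.82, 1.92 and 31.4 CPM per kb in replicates 1 to 4 and was below Lgals9 in 3 of 4 libraries, with the overlap in replicate 4 alone.

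**Figure D3:**
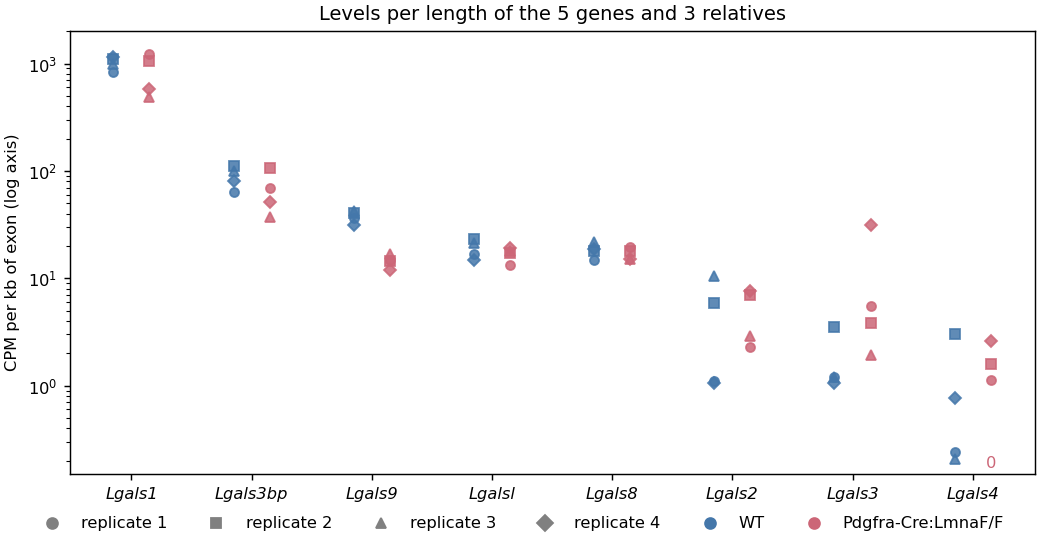
CPM per kb of exon (log axis) of the 5 genes and 3 relatives in each WT (blue) and Pdgfra-Cre:LmnaF/F (red) library, ordered by WT mean, with a 0 drawn at the base for a library without counts. Lgals1 lies highest in both groups, with a WT mean of 1023 and a Pdgfra-Cre:LmnaF/F mean of 839 CPM per kb.

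The genes differed in how much they varied between libraries. The SD of the log2 level of Lgals9 was 0.19 in WT and 0.20 in Pdgfra-Cre:LmnaF/F, and those of Lgals8 were 0.23 and 0.19, against medians of 0.42 and 0.49 over all tested genes. Lgals1 had 0.20 in WT and 0.65 in Pdgfra-Cre:LmnaF/F, and Lgals3bp had 0.35 and 0.64. Lgals3 had the highest, at 0.76 and 1.68, with counts as low as 13 in WT. As a description over the 8 libraries, after each genotype's mean was subtracted from the log2 levels, Pearson's r was 0.795 between Lgals1 and Lgals3bp, 0.738 between Lgals1 and Lgals8 and -0.0946 between Lgals1 and Lgals9. These points share their libraries and depth.

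The genes whose deviations were most like each of the 5 were named by the same measure, among 9488 genes with a mean of at least 10 CPM. They were Lpar1, Chn1 and Psd3 for Lgals1 (r of 0.995, 0.969 and 0.969), and Unc93b1, Arhgap10 and Sbf1 for Lgals3 (0.984, 0.975 and 0.969). For Lgals3bp they were Mndal, Zfp760 and Inafm2 (0.984, 0.969 and 0.96), and for Lgals8 they were Nop14, Bcs1l and Uap1 (0.963, 0.954 and 0.943). Those for Lgals9 were Nudt21, Cxcl15 and Ylpm1 (0.983, 0.977 and 0.96). Each r was picked from 9488 values over 8 libraries and is a ranking only.

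Of 7 relatives looked up, 6 were listed and 3 passed the filter on low counts, and 0 of the 3 were called by edgeR (0 at an unadjusted p under 0.05, 0 by DESeq2 and 0 by limma-voom). Lgalsl, a galectin-like gene, had 78.5 ± 16.1 CPM in WT and 69.3 ± 9.85 CPM in Pdgfra-Cre:LmnaF/F (SD, n = 4 each), with a log2 fold change of -0.17 (SE 0.21). Lgals2 and Lgals4, known mainly from the gut, had WT means of 2.76 and 2.46 CPM. Lgals7, Lgals12 and Grifin did not pass the filter and reached at most 23, 40 and 22 counts in a library.

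Galectin ligands are built by the enzymes that branch, extend and cap N-glycans. Of 15 such genes, all tested, 0 were called by edgeR or by DESeq2 and limma-voom, while 4 were lower and 0 higher at an unadjusted p under 0.05. Over all genes, 11.9% had an unadjusted p under 0.05. The median log2 fold change of the 15 was -0.27, with 13 below 0 against 48.2% of all genes tested. B4galt1, which adds the galactose that galectins bind, had 420 ± 103 CPM in WT and 269 ± 59.1 CPM in Pdgfra-Cre:LmnaF/F (log2 fold change -0.64, SE 0.23, edgeR adjusted p = 0.289). Its lowest WT library, at 266 CPM, lay within the Pdgfra-Cre:LmnaF/F range of 213 to 344. St6gal1, whose sialic acid caps block binding of several galectins, had a log2 fold change of -1.07 (SE 0.44) and St3gal3, another sialyltransferase, of -0.69 (SE 0.30). The fourth was Slc35a2, the transporter of UDP-galactose, at -0.52 (SE 0.23). WT replicate 2 was the highest library for 8 of the 15 genes, and the median was -0.43 without WT replicate 3 and -0.09 when WT replicate 2 and Pdgfra-Cre:LmnaF/F replicate 4 were left out.

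Of 17 genes of surface and matrix proteins known to bind galectins, all listed, 16 were tested and 0 were called by edgeR, DESeq2 or limma-voom. At an unadjusted p under 0.05, 1 was higher and 1 lower, a share near the 11.9% of all genes tested. The median log2 fold change was -0.16, with 12 below 0 against 48.2% of all genes tested. This median was -0.29 with Y-linked expression as a term and -0.06 when WT replicate 2 and Pdgfra-Cre:LmnaF/F replicate 4 were left out. Fn1, which encodes the matrix glycoprotein fibronectin, had 706 ± 180 CPM in WT and 477 ± 29.7 CPM in Pdgfra-Cre:LmnaF/F (log2 fold change -0.56, SE 0.21, edgeR adjusted p = 0.307). Mertk, a receptor for the uptake of dead cells, had 12.8, 6.54, 9.27 and 12.2 CPM in WT and 10.1, 19.3, 20.1 and 36.2 CPM in Pdgfra-Cre:LmnaF/F (log2 fold change 1.05, SE 0.43, edgeR adjusted p = 0.349), with its highest value in the library rich in macrophage markers. Pdpn, the membrane glycoprotein podoplanin, had a log2 fold change of -0.43 (SE 0.25), and Lamp1, a lysosomal membrane glycoprotein, of -0.33. Havcr2, which encodes TIM-3, reached at most 3 counts in any library.

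The 12 genes of the response to damaged membranes, in which galectin-3 and galectin-8 take part, were tested in full. Of these, 0 were called by edgeR, DESeq2 or limma-voom, and 0 had an unadjusted p under 0.05, against 11.9% of all genes tested. The median log2 fold change was 0.08. The lowest p belonged to Map1lc3b, an autophagosome protein, at 0.47 (SE 0.25), with 195, 242, 321 and 471 CPM in Pdgfra-Cre:LmnaF/F against 221 ± 29.6 in WT (SD, n = 4). Replicate 4 of Pdgfra-Cre:LmnaF/F was the highest library for 5 of the 12. Next by p were Tax1bp1, an autophagy receptor, at 0.32 and Lamtor1, a lysosomal scaffold, at -0.35.

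Because galectin-9 is interferon-inducible, 21 interferon-responsive genes were set beside it. All were tested, and 0 were called by edgeR, DESeq2 or limma-voom. An unadjusted p under 0.05 was found for 0, against 11.9% of all genes tested. The median log2 fold change was -0.08, with 13 below 0 against 48.2% of all genes tested. The median ran from -0.53 without Pdgfra-Cre:LmnaF/F replicate 2 to 0.17 without WT replicate 3, and was -0.47 with Y-linked expression as a term. WT replicate 3 was the highest library for 11 of the 21, Pdgfra-Cre:LmnaF/F replicate 2 for 7 and Pdgfra-Cre:LmnaF/F replicate 1 for 3. Lgals9 was also highest in WT replicate 3, at 90.1 CPM, but close to WT replicate 2 at 86.0. It had 30.8 CPM in Pdgfra-Cre:LmnaF/F replicate 2 and 31.4 CPM in Pdgfra-Cre:LmnaF/F replicate 1. Gbp2, an interferon-induced GTPase, had 41.3, 46.3, 156 and 43.9 CPM in WT and 49.7, 49.9, 22.3 and 41.1 CPM in Pdgfra-Cre:LmnaF/F (log2 fold change -0.82, SE 0.41). The part of interferon signalling in the Lgals9 result was not tested. The transcription factor Irf1 had a log2 fold change of 0.43 (SE 0.26). Zbp1, a sensor of nucleic acids, had 2.06, 2.52, 17.3 and 2.38 CPM in WT and 4.34, 0.834, 0 and 0 CPM in Pdgfra-Cre:LmnaF/F, with a log2 fold change of -2.22 (SE 1.43) and its highest value in WT replicate 3.

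Lgals3 was also set beside genes of the senescence-associated secretory phenotype (SASP), secreted factors of senescent cells. These were the factors followed in hearts of the same mouse lines in the study, so their direction here is not independent evidence. Lgals3 itself was followed there too. The paper reported its protein and transcript as increased in Pdgfra-Cre:LmnaF/F hearts of older mice, not in sorted cells as here. Of 7 listed, 6 were tested, 0 were called by edgeR and 0 by limma-voom, and 1, Timp1, by DESeq2. All 6 were above 0 with a median log2 fold change of 1.84, while 48.2% of all genes tested were below 0. An unadjusted p under 0.05 was found for 4 of the 6, against 11.9% of all genes tested. Without Pdgfra-Cre:LmnaF/F replicate 4, which was the highest library for 3 of the 6, the median was 1.04. Timp1, an inhibitor of matrix metalloproteinases, had 19.9, 38.2, 18.5 and 19.5 CPM in WT and 65.3, 83.0, 13.2 and 129 CPM in Pdgfra-Cre:LmnaF/F (log2 fold change 1.63, SE 0.49, edgeR adjusted p = 0.192). Like Lgals3, it was highest in Pdgfra-Cre:LmnaF/F replicate 4 and lowest of that genotype in replicate 3. Serpina3g, a serine protease inhibitor, had a log2 fold change of 2.21 (SE 0.97) from a low WT mean of 2.26 CPM. Thbs4, a matricellular protein, had 0.467, 0, 7.51 and 1.14 CPM in WT and 1.34, 0, 3.22 and 79.5 CPM in Pdgfra-Cre:LmnaF/F (log2 fold change 3.13, SE 1.45), so it was above the WT range in replicate 4 alone. The median fell to 0.61 when each gene was required to have at least 10 counts in every library.

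**Figure D4:**
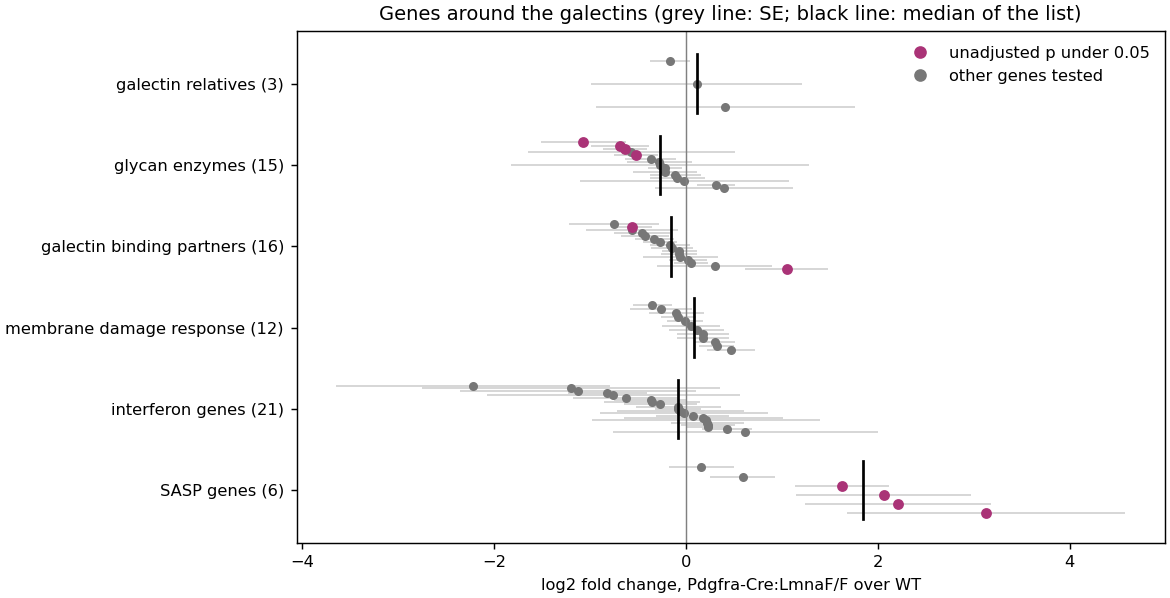
Log2 fold change (Pdgfra-Cre:LmnaF/F over WT) of every tested gene in the 6 lists set beside the galectins, with grey lines for SE, black lines for list medians and purple for an unadjusted p under 0.05. The SASP median of 1.84 lies farthest from 0, the glycan enzyme median is -0.27, and 0 genes of any list were called by edgeR.

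The estimates for each of the 5 genes were compared over 19 other settings. Lgals9 ranged from -1.49 to -1.25 on the log2 scale and stayed past the threshold in 18 of them. Lgals3 ranged from 1.16 to 3.20 and passed in 2. Lgals1 ranged from -0.54 to -0.09, Lgals3bp from -0.75 to -0.20 and Lgals8 from -0.23 to -0.02, and none of the 3 passed in any.

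**Figure D5:**
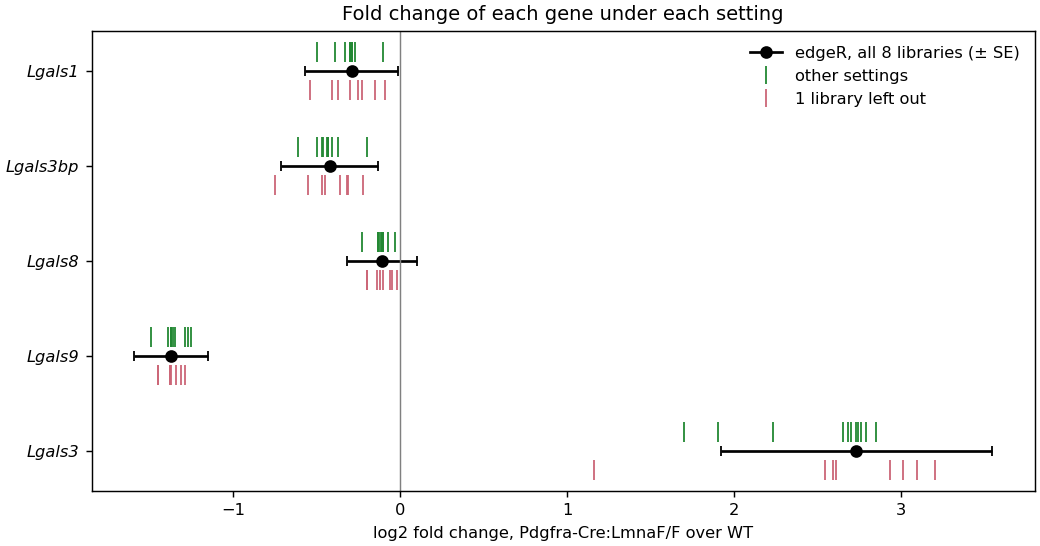
Log2 fold change (Pdgfra-Cre:LmnaF/F over WT) of each gene in the edgeR fit of all 8 libraries (black point, ± SE), in 11 other settings (green ticks) and with 1 library left out (red ticks). The Lgals9 ticks stay between -1.49 and -1.25, and those of Lgals3 spread from 1.16 to 3.20.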

How the data were processed

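RNA of sorted PDGFRA+ ventricular cells was sequenced from 4 WT and 4 Pdgfra-Cre:LmnaF/F samples, grouped by the genotype in the labels. Strand-specific libraries were made from RNA freed of ribosomal RNA and read as 150 bp pairs, which the authors aligned with HISAT2 (mm10) and assigned to genes with featureCounts. The deposited values are counts, whole numbers listed by gene symbol. Their methods also name RUV normalisation, but the values are whole and library totals differ, so they were treated as unnormalised counts. The version of GENCODE, the strand setting and the number of mice behind a library are not given in the sources used here. The unit of every test is therefore the library, which may or may not stand for a single mouse. Library totals were 2080555 to 12502949 counts, and the printed SD and SE include the variation between libraries. Each library listed 18957 genes.

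Counts were tested with edgeR 4.0.16 in R 4.3.3 (TMM factors, filterByExpr, quasi-likelihood test, Benjamini-Hochberg adjustment over 13036 genes, called at an adjusted p under 0.05). The script was tested on simulated data. SE is the fold change divided by the root of the F statistic. DESeq2 1.42.0, limma 3.58.1 with voom quality weights, other normalisations, filters, a thinned depth, an RUV factor, a Y-linked term, a replicate block and each library left out were the alternatives. Leaving out WT replicate 2 and Pdgfra-Cre:LmnaF/F replicate 4 together was added after seeing the data. Log2 levels used a prior count of 2. Marker sums were compared by exact two-sided permutation tests. Exon lengths, positions and coding sequences came from GENCODE M21 on GRCm38.

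The 5 genes, the gene lists and the tests were chosen with earlier results of these data known. Named were the 5 genes, Lmna, of each list any gene called and otherwise the 3 of lowest p, and for each of the 5 the 3 genes of highest correlation. 1 gene this rule names is not reported here. Values of Slc35a2, Thbs4, Lgalsl, Lgals2, Lgals4, Lgals7, Lgals12, Grifin, Lamp1, Havcr2 and of single marker genes were chosen after they were seen or because they stand for a list.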

Additional observations from a re-analysis of the deposited data

Results flagged for a closer look

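Each group of 4 libraries was searched for a value whose gap to its nearest neighbour took up most of the group's range (Dixon's ratio above 0.829). Of 26 groups examined, 5 held such a value. Chance alone gives about 1 in 20 where values are normal and groups independent. The groups here share the same libraries and hold CPM on a linear scale, so the 5 cannot be set against that rate. For Lgals3, WT replicate 2 stood above its group at 6.54 CPM (ratio 0.94), a value from 13 counts in the shallowest library. In the Pdgfra-Cre:LmnaF/F group, replicate 4 stood above the others for Lgals3 at 58.3 CPM (ratio 0.876). The same library stood above its group for the summed macrophage markers at 519 CPM (ratio 0.874), cardiac myocyte markers at 3122 CPM (ratio 0.932) and endothelial markers at 514 CPM (ratio 0.836). Of the 5 values, 4 belong to this 1 library. Lgals1, Lgals3bp, Lgals8 and Lgals9 held no such value in either genotype.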

How the results depend on the processing

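All 5 genes kept the direction of their log2 fold change in the 19 alternatives. Lgals9 stayed called in the 18 planned ones (adjusted p from 9.27e-06 to 0.0484), with -1.45 to -1.29 when 1 library was left out, and missed the threshold, at -1.25, when WT replicate 2 and Pdgfra-Cre:LmnaF/F replicate 4 were both left out. Lgals3 was called by DESeq2 (2.68) and without the filter on low counts (2.70), and its range with 1 library left out was 1.16 to 3.20. The cause of these changes was not tested. The number of genes called in the whole table was 53, against 303 with DESeq2, 126 with limma-voom, 274 without the filter, 81 with an RUV factor, 119 with a Y-linked term and 13 to 76 with 1 library left out. In the SASP list 1 gene, Timp1, was called with DESeq2, without the filter and without Pdgfra-Cre:LmnaF/F replicate 3 (0 to 1 with 1 library left out). The Y-linked sum had a log2 ratio of -7.18 to -0.60 with 1 library left out. Replicate numbers are shared by both genotypes, but deviations of same-numbered libraries correlated between -0.0298 and 0.0396, so the numbers did not pair the samples. With a replicate block Lgals9 had -1.37 (adjusted p = 0.0342), Lgals3 1.90 (adjusted p = 0.432), and 36 genes were called. The 13 counts of Lgals3 in the shallowest library limit its WT level.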
